A study of Mus musculus with 4 samples.

Results

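Genes that mark the identity of endothelial cells, the cells that line blood and lymph vessels, were examined in the quadriceps of mice that carry transgenes for both NF90 and NF45. The group was set by a list of 32 gene symbols. A gene counted as measured where a probe set was paired with its symbol alone, and its brightest probe set by the mean over all arrays stood for it. By this rule 31 of the 32 genes were measured, out of 22180 genes in all. The exception was Rasip1, an endothelial regulator of small GTPases, whose probe set is also paired with Izumo1 and was not used.

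Total RNA was measured on whole-transcript arrays in 4 mice, 1 array per mouse. WT replicate 1 was a male of 17 to 18 weeks and WT replicate 2 a female of 16 weeks, both wild type. The dbTg mice carried the NF90-NF45 double transgene, and replicate 1 was a male and replicate 2 a female, both of 16 weeks. Neither the mouse strain nor the promoter driving the transgenes is stated in the sources used here, and each group rests on 2 animals. Values are log2 RMA values, so a difference of 1 is a 2-fold difference, and a difference is always dbTg minus WT. Ilf2, which encodes NF45, read 5.03 and 5.04 in WT and 10.36 and 10.16 in dbTg. The array medians over all probe sets lay between 1.55 and 1.60. The upper quartiles were less alike, at 2.80 and 2.78 in WT and 2.99 and 2.98 in dbTg. As a check that the tissue was muscle, 10 markers of muscle fibres were read. They lay at 7.83 to 11.16 over all arrays and differed by a median of 0.03. They do not tell the quadriceps from another muscle. The mice of each group differed in the fibre myosin gene Myh2, at 7.83 and 9.90 in WT and 8.24 and 9.63 in dbTg.

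Endothelial cells hold a vessel wall together through adhesion molecules such as VE-cadherin. They take growth and stability signals through VEGF receptors, which bind vascular endothelial growth factors, and through the angiopoietin receptor system. Their identity is kept by transcription factors of the ETS, SOX and basic helix-loop-helix families. In skeletal muscle, capillaries run along every fibre and pass oxygen, glucose and fatty acids to it. A bulk sample cannot tell fewer endothelial cells from less of these RNAs in each cell.

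Most endothelial genes read lower in dbTg muscle, and none passed the test over the whole array. Differences were negative for 26 and positive for 5 of the 31 genes, with a median of -0.37 and a range of -0.88 to 0.20. By comparison, the median over all 13308 tested genes was 0.09, and 39.5% of them had a negative difference. Over all 22180 genes, tested or not, the median was -0.02 and 52.0% were negative. On 17 of the 31 genes both dbTg arrays read below both WT arrays, a pattern found for 16.3% of the tested genes and 24.1% of all genes. The reverse, both dbTg arrays above both WT arrays, held for 1 endothelial gene, for 33.7% of the tested genes and for 5288 of all 22180 genes. The groups overlapped for the other 13.

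In limma, 0 of the 31 genes were lower or higher at an adjusted p under 0.05, where 0.203% of the tested genes were lower and 2.01% higher. With an unadjusted p below 0.05, 7 were lower and 0 higher, against 4.64% and 14.0% of the tested genes. The count of 7 lower genes fell without WT replicate 2 or either dbTg array and rose without WT replicate 1. Calls over the whole array moved as well when arrays were left out. Counts below from such fits are given without the share of all tested genes in the same fit. At an adjusted p under 0.1, 2 were lower, against 0.947%. The genes called lower over the whole array differed by -0.85 to -1.92, and most endothelial differences were smaller than that. An exact permutation test of a single gene cannot give a p below 0.333 with these arrays. All 31 genes passed the intensity filter on the mean of the 4 arrays, and none had a WT mean under it. Cldn5 and Tal1 had dbTg means under it, so they passed through their WT values. Both are counted among the genes with both dbTg arrays below WT, and Cldn5 among the 7 with an unadjusted p below 0.05.

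**Figure D1:**
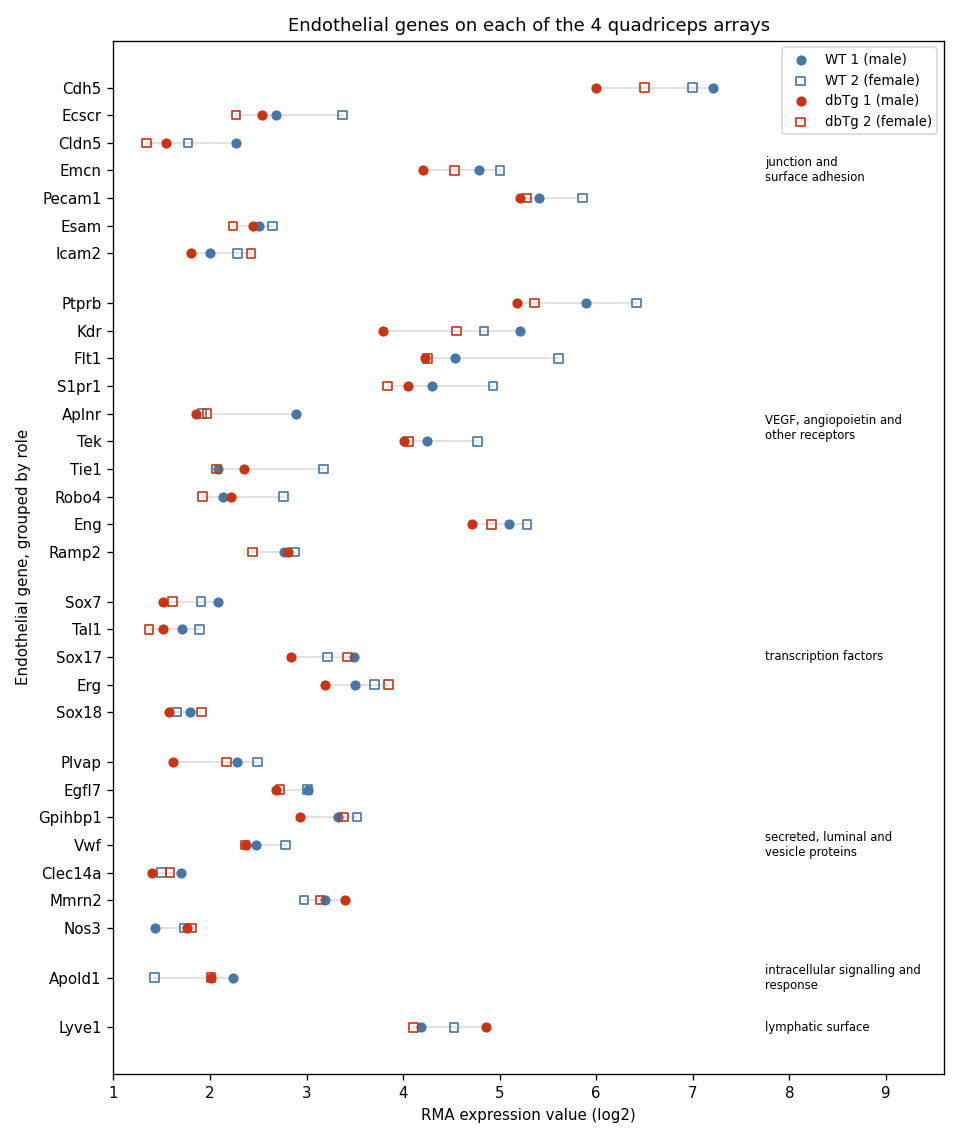
RMA expression value (log2) of each of the 31 endothelial genes on each array; blue symbols are WT, red symbols dbTg, filled circles the males and open squares the females. On 17 genes both red symbols lie left of both blue ones, as for Cdh5 and Ptprb, while Lyve1, Apold1 and Erg mix the groups.

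The stretches just upstream of the start of 4 of these genes are printed to show the DNA in front of genes whose groups lay apart. Of the 17 genes with both dbTg arrays below WT, 8 had an entry in the RefSeq promoter table of GRCm38.p6. For 4 of them a window of 250 bases lay outside every annotated gene. Endothelial transcription is known to rest on ETS factors such as ERG, which bind around the core GGAA. Capitals mark each GGAA or, where the core lies on the opposite strand, TTCC.

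Cldn5 (chr16:18776597-18776846, plus strand), the claudin of endothelial tight junctions: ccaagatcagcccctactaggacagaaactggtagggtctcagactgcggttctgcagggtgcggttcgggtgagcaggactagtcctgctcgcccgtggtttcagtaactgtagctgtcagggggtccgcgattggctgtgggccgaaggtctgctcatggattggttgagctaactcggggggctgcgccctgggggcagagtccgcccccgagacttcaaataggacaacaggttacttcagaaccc

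Eng (chr2:32646345-32646594, plus strand), the endothelial co-receptor endoglin: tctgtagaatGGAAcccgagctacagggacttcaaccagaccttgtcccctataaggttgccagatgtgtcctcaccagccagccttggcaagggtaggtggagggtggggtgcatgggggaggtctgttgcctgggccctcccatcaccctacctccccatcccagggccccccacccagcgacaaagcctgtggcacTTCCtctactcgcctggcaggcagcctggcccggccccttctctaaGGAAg

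Egfl7 (chr2:26580833-26581082, plus strand), a secreted matrix protein of endothelium: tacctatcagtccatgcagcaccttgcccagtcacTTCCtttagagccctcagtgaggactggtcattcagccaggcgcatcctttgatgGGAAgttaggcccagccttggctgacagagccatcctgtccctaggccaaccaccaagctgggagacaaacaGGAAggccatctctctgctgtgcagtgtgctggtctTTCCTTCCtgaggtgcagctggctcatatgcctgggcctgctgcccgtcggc

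Tal1 (chr4:115056176-115056425, plus strand), a blood and endothelial transcription factor: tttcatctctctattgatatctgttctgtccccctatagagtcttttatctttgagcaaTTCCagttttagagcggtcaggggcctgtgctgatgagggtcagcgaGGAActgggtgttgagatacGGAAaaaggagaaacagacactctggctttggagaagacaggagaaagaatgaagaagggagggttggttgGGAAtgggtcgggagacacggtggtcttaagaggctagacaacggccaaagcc

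The core was found 3 times before Eng, 5 times before Egfl7, 4 times before Tal1 and 0 times before Cldn5. Searched on both strands, GGAA was present in 93.4% of all 32851 windows of this length, so its presence sets no gene apart. The longer match CAGGAAG, which contains the core, stood in 10.8% of all windows and in 7 of the 19 windows that 14 endothelial genes have in the table. The SOX core ACAAT stood in 27.7% of all windows and in 6 of the 19, and the GATA core GATAA in 22.6% and 3 of the 19. These matches are letters in a window, and no binding was measured.

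The adhesion genes all had negative differences. Of the 7, both dbTg arrays read below WT for 6, the median difference was -0.53, and 3 were lower at an unadjusted p under 0.05. Among all tested genes, 16.3% read below in this way and 4.64% were lower at that p. Leaving out WT replicate 2 gave a median of -0.28, and the count of 3 fell to 1 without either dbTg array. Cdh5 encodes VE-cadherin, the cadherin of endothelial junctions. It read 7.20 and 6.996 on the WT arrays and 6.002 and 6.50 on the dbTg arrays. Both dbTg arrays were low, the male most, and the gap between the groups was 0.49. The difference was -0.85 (SE 0.21; 95% interval -1.34 to -0.35; limma adjusted p = 0.0929), which makes WT 1.80-fold higher. Cldn5 read 2.27 and 1.77 in WT and 1.54 and 1.34 in dbTg, a difference of -0.58 (SE 0.23, limma adjusted p = 0.247) that was -0.33 without WT replicate 1. Emcn, the sialomucin endomucin of capillaries and veins, read 4.79 and 5.004 in WT and 4.20 and 4.53 in dbTg. Its difference of -0.53 (SE 0.21, limma adjusted p = 0.243) was of like size in the males (-0.58) and the females (-0.47).

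Pecam1, the adhesion molecule CD31 used to stain vessels, read 5.41 and 5.86 in WT and 5.21 and 5.28 in dbTg. The groups did not overlap, but the difference of -0.39 (95% interval -0.88 to 0.10) was smaller than the 0.45 between the WT arrays. Ecscr, a surface regulator of endothelial migration, read 2.68 and 3.37 in WT and 2.54 and 2.27 in dbTg. Its difference was -0.62 and the WT arrays were 0.69 apart. Esam, an immunoglobulin-like junction protein, read 2.51 and 2.65 against 2.44 and 2.24, with a gap of 0.07 between the groups. Icam2, a ligand for leukocyte integrins, read 2.00 and 2.29 in WT and 1.81 and 2.42 in dbTg. Its groups overlapped, with a difference of -0.03 (95% interval -0.67 to 0.61).

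The receptor genes also all had negative differences, with a median of -0.48 over the 10. For 6 of them both dbTg arrays read below WT, and 4 were lower at an unadjusted p under 0.05, against 16.3% and 4.64% of the tested genes. Without WT replicate 2 the median was -0.29 with 9 negative, and without dbTg replicate 1 the count of 4 fell to 1 (2 without dbTg replicate 2). Ptprb encodes VE-PTP, the phosphatase that restrains the TIE2 receptor. It read 5.89 and 6.41 in WT and 5.18 and 5.36 in dbTg. The gap between the groups, 0.53, was the widest of the 31 genes. The difference of -0.88 (SE 0.22; 95% interval -1.41 to -0.36; limma adjusted p = 0.0962) makes WT 1.84-fold higher.

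The 2 VEGF receptors differed by like amounts but on different arrays. Kdr, the main signalling receptor VEGFR2, read 5.21 and 4.84 in WT and 3.80 and 4.55 in dbTg. The male dbTg array stood lowest, and the difference of -0.85 (SE 0.29, limma adjusted p = 0.184) was -1.41 in the males, -0.29 in the females and -0.47 without dbTg replicate 1. Flt1, the receptor VEGFR1 that also acts as a trap for VEGF, read 4.54 and 5.61 in WT and 4.23 and 4.25 in dbTg. Here the female WT array stood highest, and the difference of -0.83 (SE 0.34, limma adjusted p = 0.259) was -0.31 in the males, -1.36 in the females and -0.30 without WT replicate 2. The WT arrays of Flt1 were 1.07 apart, more than the difference itself.

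The angiopoietin receptor genes were less clear. Tek, which encodes TIE2, read 4.25 and 4.77 in WT and 4.01 and 4.06 in dbTg, a difference of -0.47 (95% interval -1.03 to 0.08). Tie1, its partner receptor, read 2.08 and 3.17 in WT and 2.35 and 2.07 in dbTg. The female WT array stood alone at the top, and without it the difference of Tie1 turned from -0.42 to 0.13. S1pr1, the receptor for sphingosine-1-phosphate that stabilises junctions, read 4.30 and 4.93 in WT and 4.05 and 3.84 in dbTg. Its difference was -0.67 (SE 0.26, limma adjusted p = 0.237), and -0.35 without WT replicate 2 (limma adjusted p = 0.463).

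The other receptors differed by less than 0.50. Eng, a co-receptor for ligands of the TGF-beta family, read 5.10 and 5.28 in WT and 4.71 and 4.92 in dbTg, with differences of -0.38 in the males and -0.37 in the females. Aplnr, the apelin receptor, read 2.90 on the male WT array and 1.92, 1.86 and 1.97 on the others. Its difference of -0.49 rested on that array and was -0.00471 without it. Robo4, an endothelial guidance receptor, and Ramp2, the partner of the adrenomedullin receptor, overlapped between groups (differences -0.38 and -0.20). A second probe set, paired with both Vps25 and Ramp2, read 5.46 and 5.46 in WT and 4.96 and 5.04 in dbTg, and cannot be given to either gene.

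**Figure D2:**
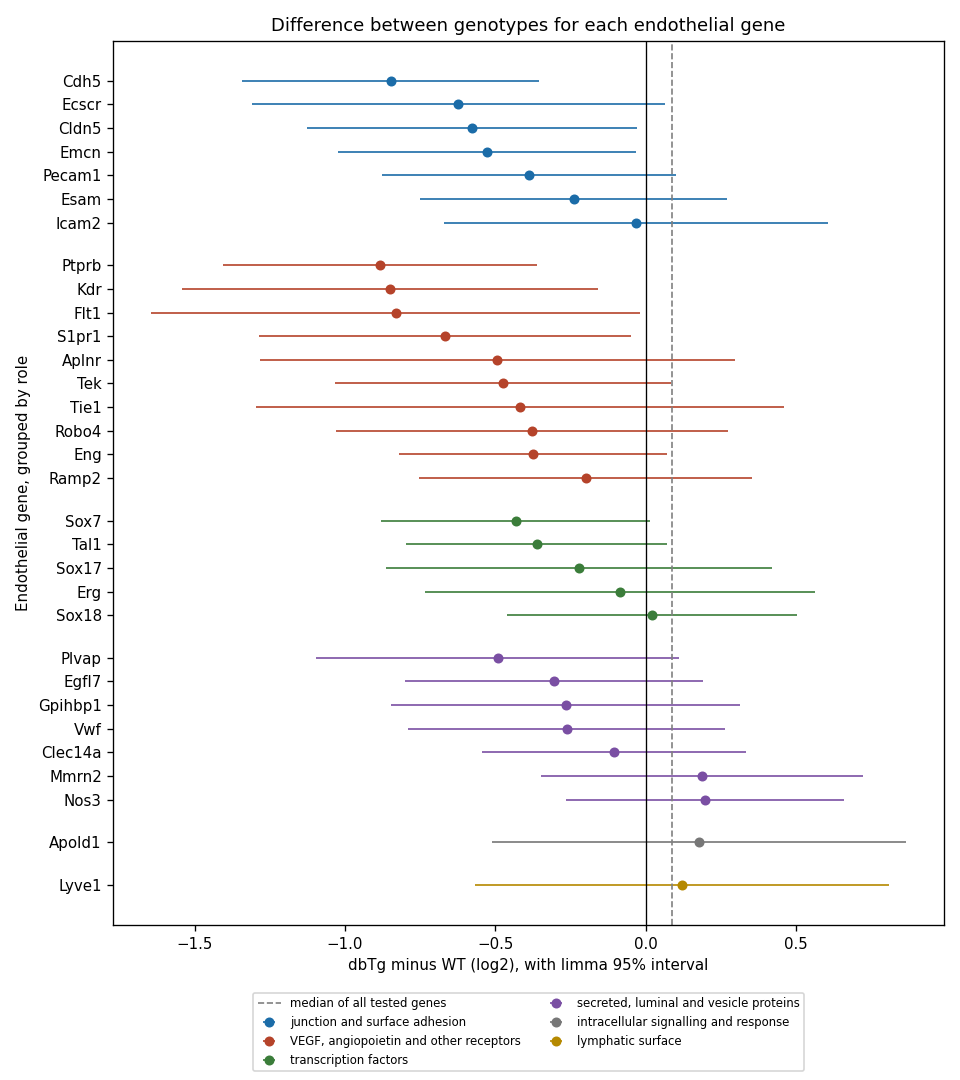
Difference between dbTg and WT (log2) for each of the 31 endothelial genes, grouped by role, with the limma 95% interval; the dashed line is the median of all tested genes at 0.09. All 17 adhesion and receptor genes lie left of 0, and the intervals of 7 genes end short of 0, before any adjustment for the number of genes tested.

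Of the 5 transcription factor genes, both dbTg arrays read below WT for 2, against 16.3% of the tested genes. None had an unadjusted p under 0.05, and their median difference was -0.22 (0.07 without dbTg replicate 1). Sox7, of the SOX factors that specify endothelium, read 2.09 and 1.91 in WT and 1.52 and 1.61 in dbTg. Its difference was -0.43 (SE 0.19, limma adjusted p = 0.28). Tal1 read 1.71 and 1.89 in WT and 1.51 and 1.37 in dbTg, a difference of -0.36. The levels of Sox7 and Tal1 lie close to the intensity filter of 1.48. So do those of 3 genes given below. Their WT and dbTg means were 1.72 and 1.74 for Sox18, 1.60 and 1.49 for Clec14a and 1.59 and 1.78 for Nos3.

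The remaining factors overlapped between groups. Sox17, known from arteries, read 3.49 and 3.22 in WT and 2.84 and 3.42 in dbTg, a difference of -0.65 in the males and 0.21 in the females. Erg, the ETS factor of mature endothelium, read 3.51 and 3.71 in WT and 3.20 and 3.85 in dbTg, a difference of -0.08 (95% interval -0.73 to 0.57). Sox18, a factor of blood and lymph vessels, differed by 0.02 (95% interval -0.46 to 0.50). Each of these intervals reaches at least to -0.46.

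The secreted, luminal and vesicle proteins split. Of the 7, 5 had negative and 2 positive differences, the median was -0.26 (-0.04 without dbTg replicate 1), and none had an unadjusted p under 0.05. Egfl7 read 3.01 and 3.01 in WT and 2.68 and 2.73 in dbTg. The arrays of each group lay within 0.04 of each other, and the difference of -0.30 (SE 0.21, limma adjusted p = 0.492) was of like size in the males (-0.33) and the females (-0.28). The SE is wider than these arrays alone would give, since limma draws each gene's spread towards that of all genes. Plvap, which forms the diaphragms of fenestrae and caveolae, read 2.28 and 2.49 in WT and 1.61 and 2.17 in dbTg, a difference of -0.49. Vwf, the von Willebrand factor of endothelial storage granules, read 2.47 and 2.78 in WT and 2.37 and 2.36 in dbTg.

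Gpihbp1 carries lipoprotein lipase to the capillary lumen. It read 3.33 and 3.52 in WT and 2.94 and 3.38 in dbTg, and the groups overlapped by the female dbTg array. Clec14a, a C-type lectin of vessels, differed by -0.10, with overlap. Its known extracellular partner Mmrn2 read 3.19 and 2.97 in WT and 3.40 and 3.14 in dbTg, a difference of 0.19 (95% interval -0.35 to 0.72). Nos3, the endothelial nitric oxide synthase, was the 1 gene whose dbTg arrays both read above WT: 1.76 and 1.81 against 1.43 and 1.74. The gap between its groups was 0.02.

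Apold1, an early-response gene of endothelium, read 2.24 and 1.42 in WT and 2.01 and 2.01 in dbTg, so both dbTg arrays lay between the WT arrays. Lyve1, the hyaluronan receptor of lymphatic endothelium that some tissue macrophages also carry, read 4.19 and 4.53 in WT and 4.86 and 4.11 in dbTg. The male dbTg array was highest and the female lowest, with a difference of 0.12 (95% interval -0.57 to 0.81). The macrophage and leukocyte markers given below were high on both dbTg arrays, and their part in the value of Lyve1 was not tested.

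The pattern over arrays was not the same for every gene. The male dbTg array was the lowest of the 4 for 18 genes and the female dbTg array for 10, against 16.0% and 20.3% of the tested genes. Of all 22180 genes these were 5093 and 5530. The female WT array was the highest for 16 genes and the male for 9, against 21.8% and 21.6% of the tested genes. Of all 22180 genes these were 6031 and 6130. WT replicate 2 read above WT replicate 1 for 20 genes, against 49.2% of the tested genes. The median of replicate 2 minus replicate 1 was 0.20 over the 31 and -0.01 over all tested genes. In dbTg, replicate 2 also read above replicate 1 for 20 genes, against 48.0% of the tested genes. The medians there were 0.05 and -0.01. Sex and replicate number cannot be told apart here, and in WT neither can age.

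Differences were negative in both the male and the female pair for 18 genes, against 22.2% of the tested genes and 6995 of all 22180 genes. They were positive in both for Mmrn2 and Nos3, and opposite for 11, against 36.4% of the tested genes. The median was -0.24 in the males and -0.41 in the females. Without WT replicate 2 the median over the 31 genes was -0.23, and -0.36 to -0.42 without each of the other arrays. For 11 genes the difference was negative and exceeded the distance between the arrays of either group, against 11.4% of the tested genes. These were Cdh5, Esam, Cldn5, Emcn, Kdr, Ptprb, Eng, S1pr1, Sox7, Tal1 and Egfl7, of which Cldn5 and Tal1 passed the intensity filter only through their WT values. Calls among the 31 genes came only without WT replicate 1, where the remaining WT array is assumed to vary like the dbTg arrays. They were Flt1, Ptprb and S1pr1, with differences of -1.37, -1.14 and -0.98 in that fit. Calls over the whole array also moved when arrays were left out.

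**Figure D3:**
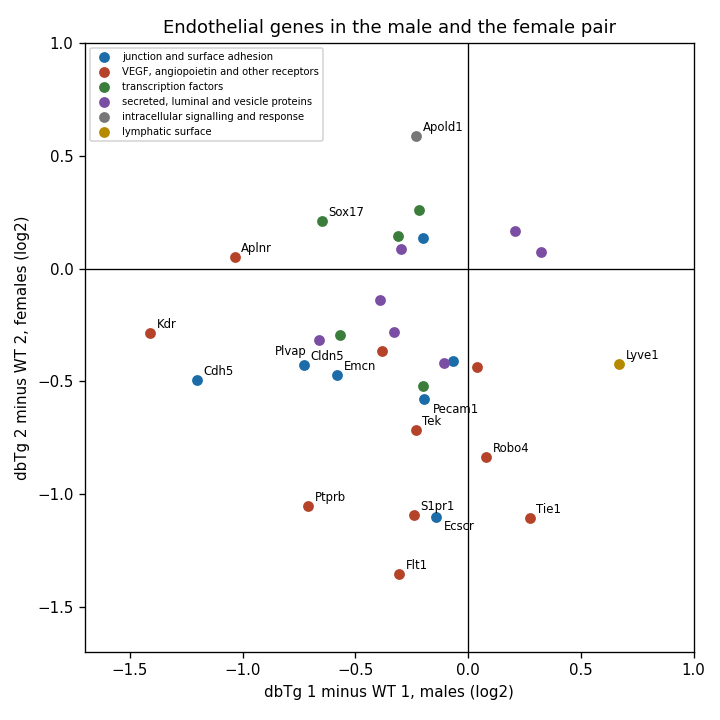
Difference in the male pair (horizontal, log2) against the female pair (vertical, log2) for the 31 endothelial genes, coloured by role. The 18 genes in the lower left quadrant read lower in dbTg in both pairs; Kdr and Cdh5 lie far left, with their larger difference in the males, and Flt1, Tie1 and S1pr1 lie low, with theirs in the females.

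Differences were larger among the brightest probe sets than among the dimmer ones. Bands of brightness were chosen after the values were seen. The 10 genes with a mean over the 4 arrays at or above 4 had a median difference of -0.60, and 9 of them had both dbTg arrays below WT, Lyve1 being the exception. Among all tested genes this bright, the median was 0.07 and 21.9% had both dbTg arrays below WT. The 7 genes between 2.5 and 4 had a median of -0.22 with 2 such genes, and the 14 under 2.5 a median of -0.31 with 6. All tested genes of these bands had medians of 0.19 and 0.05, and 10.3% and 16.0% of them had both dbTg arrays below WT. RMA values near the background can understate differences, and whether they did so here was not tested.

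Other genes of vessels were examined in lists drawn up by function, and none of their members passed the adjusted threshold. The list closest in kind held 30 further genes enriched in endothelium. Its median difference was -0.13, with 19 negative and 11 positive differences. Both dbTg arrays read below WT for 7 and above for 5, against 16.3% and 33.7% of the tested genes. Over all genes, tested or not, 24.1% read below. With an unadjusted p below 0.05, 3 were lower and 3 were higher, against 4.64% and 14.0% of the tested genes. Leaving out WT replicate 2 moved the median to -0.06, and leaving out dbTg replicate 1 turned it to 0.01, with 15 of 30 negative, 0 lower and 1 higher. The lower ones were Adgrf5 (-0.60), an adhesion receptor of endothelium, the anti-adhesive sialomucin gene Podxl (-0.61) and the signalling gene Tmem88 (-0.72). The higher ones were Afap1l1 (0.82), which encodes an actin-binding protein, the junction protein gene Cgnl1 (0.74) and the prostaglandin transporter gene Slco2a1 (0.68). Afap1l1 read 4.41 and 4.02 in WT and 5.22 and 4.85 in dbTg (limma adjusted p = 0.125), and Cgnl1 2.24 and 2.41 against 3.18 and 2.95 (limma adjusted p = 0.143). Without WT replicate 1, Adgrf5 was called lower (limma adjusted p = 0.0457) and Afap1l1 higher (limma adjusted p = 0.0474), and neither was called without any other array. The broader set of endothelial genes held members on both sides, and its difference from the 31 genes was not tested.

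Ligands and partners of the receptors had a median of 0.05 over 14 tested genes, which ran from -0.03 without dbTg replicate 2 to 0.20 without WT replicate 1. Vegfb, a VEGF made by muscle fibres that binds VEGFR1, read 5.11 and 5.78 in WT and 4.57 and 4.86 in dbTg (difference -0.73, SE 0.26, limma adjusted p = 0.199). Its difference reached -1.06 without WT replicate 1 (limma adjusted p = 0.0324), against -0.40 without WT replicate 2 (limma adjusted p = 0.374). Bmp6, a ligand of the TGF-beta family, read 2.78 and 4.30 in WT and 2.55 and 2.15 in dbTg, a difference of -1.19 (limma adjusted p = 0.248). It reached -1.95 without WT replicate 1 (limma adjusted p = 0.00811), against -0.43 without WT replicate 2 (limma adjusted p = 0.444). Vegfa, the main ligand of VEGFR2, read 6.74 and 6.99 in WT and 6.48 and 6.67 in dbTg, a difference of -0.29. Vegfa and the further genes of this list that the naming rule does not cover were chosen after their values were seen. Tgfb1, a growth factor of many cells, differed by 0.66 (limma adjusted p = 0.252). Calcrl, the receptor that Ramp2 joins, differed by -0.14.

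Genes of the Notch pathway had a median of -0.18 over 9 tested genes, which ran from -0.07 without dbTg replicate 2 to -0.31 without WT replicate 2. Hey1 and Notch4 were lower with an unadjusted p below 0.05 and no gene of the list was higher. Among the tested genes 4.64% were lower and 14.0% higher by that measure. Without dbTg replicate 2 the differences of Hey1 and Notch4 were -0.60 and -0.51, and that of Notch4 was -0.43 without WT replicate 1. Hey1, a Notch target in arteries, read 2.87 and 3.40 in WT and 2.53 and 2.31 in dbTg (difference -0.72, limma adjusted p = 0.207), with -0.45 without WT replicate 2. Notch4, the endothelial Notch receptor, read 3.55 and 3.22 in WT and 2.88 and 2.70 in dbTg (difference -0.60, limma adjusted p = 0.231). Both genes had groups apart.

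Further endothelial transcription factors, 12 of them tested, had a median of -0.07, which ran from -0.12 without dbTg replicate 2 to 0.02 without WT replicate 1. Epas1, the hypoxia factor HIF-2 alpha, read 5.84 and 6.40 in WT and 5.40 and 5.42 in dbTg (difference -0.72, SE 0.22, limma adjusted p = 0.15). It reached -0.998 without WT replicate 1 (limma adjusted p = 0.0258), against -0.44 without WT replicate 2 (limma adjusted p = 0.257). Ets2 overlapped between groups, at 0.30 (-0.11 without WT replicate 2).

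Of 10 genes of lipid and solute transport in muscle capillaries, 3 were lower and 2 higher with an unadjusted p below 0.05. Among the tested genes 4.64% were lower and 14.0% higher. The median over the 10 was -0.26. Leaving out WT replicate 1 moved the median to -0.55 and leaving out WT replicate 2 to -0.01, where 5 of 10 were negative. Without WT replicate 1, Aqp1 and Lpl, the lipoprotein lipase gene, were called lower (limma adjusted p = 0.0135 and 0.00715), and Lpl had a difference of -0.59 over all arrays (limma adjusted p = 0.505). Aqp1, the water channel of capillary endothelium, read 6.20 and 6.58 in WT and 5.41 and 5.35 in dbTg. Its difference of -1.01 (SE 0.19, limma adjusted p = 0.0519) makes WT 2.01-fold higher. It lay just outside the threshold, and was inside it with the filter at the 60th percentile (limma adjusted p = 0.0418), with probe sets of 1 gene averaged (0.04998) and with robust eBayes (0.0432). Over all alternatives it ran from 0.0135 to 0.382. Tcf15, which with Meox2 directs fatty acid transport genes in muscle endothelium, read 2.62 and 3.06 in WT and 2.07 and 2.07 in dbTg, a difference of -0.77, while Meox2 differed by -0.02. Rgcc, a cell cycle regulator, read 4.88 and 4.89 in WT and 5.45 and 5.93 in dbTg (difference 0.81, limma adjusted p = 0.109). The fatty acid binding protein gene Fabp4, also a fat cell gene, differed by 0.52.

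Among adhesion molecules of activated endothelium, Vcam1 and Icam1 read higher in dbTg. Vcam1 read 2.31 and 1.58 in WT and 3.33 and 3.39 in dbTg (difference 1.42, SE 0.29, limma adjusted p = 0.0618), and Icam1 2.22 and 1.82 in WT and 3.03 and 3.10 in dbTg (difference 1.04, SE 0.23, limma adjusted p = 0.0777). Both were called without WT replicate 1 (limma adjusted p = 0.00813 and 0.0301) and neither without any other array, the limma adjusted p reaching 0.405 and 0.449. Both bind leukocyte integrins, and cells other than endothelium also make them. Sele, the selectin of activated endothelium, read 2.55 and 2.54 in WT and 1.99 and 2.11 in dbTg, a difference of -0.50. The median was 0.49 over the 5 tested genes of this list and 0.25 over all 6. Of 5 measured lymphatic genes, 3 were tested. Pdpn, which fibroblasts and macrophages can also express, differed by 1.03 (limma adjusted p = 0.113, from 0.0177 without WT replicate 1 to 0.484 without dbTg replicate 2), and Flt4, the receptor VEGFR3, by -0.29. The median was -0.24 over the 3 tested genes and 0.11 over all 5.

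**Figure D4:**
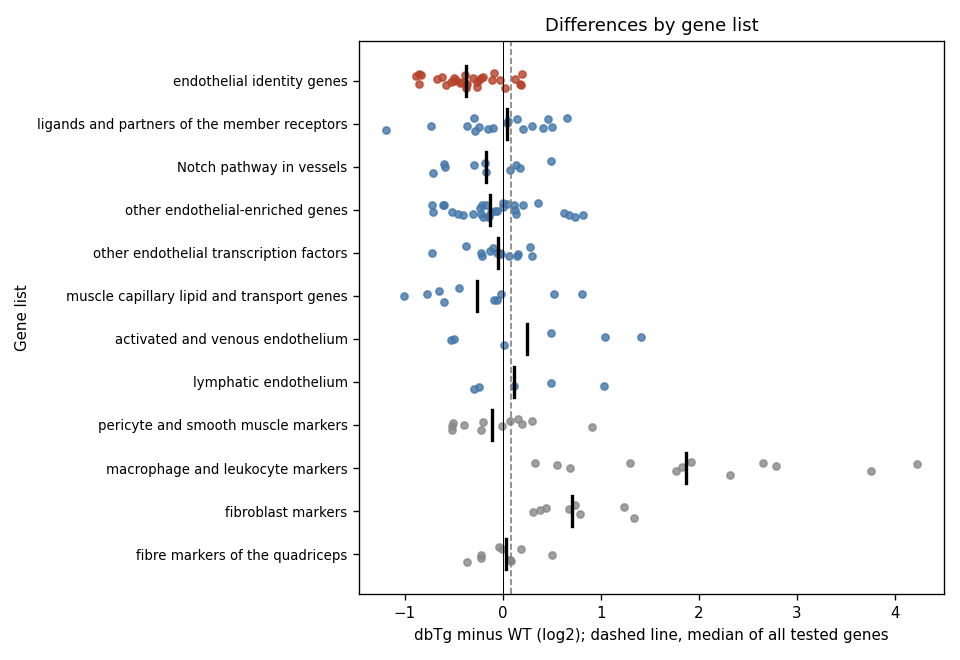
Difference between dbTg and WT (log2) for every measured gene of the endothelial group (red), of the other vessel lists (blue) and of the markers of other cells (grey); black bars are list medians and the dashed line the median of all tested genes. The endothelial genes lie around -0.37, the 30 other endothelial-enriched genes spread to both sides of 0 around -0.13, and the macrophage and leukocyte markers lie around 1.87.

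Of 12 macrophage and leukocyte markers, 8 rose in limma at an adjusted p under 0.05, against 2.01% of the tested genes, and the median was 1.87. Their mean log2 level was 2.97 and 2.83 on the WT arrays and 5.05 and 4.78 on the dbTg arrays. Ctss, a lysosomal protease, rose by 4.23, Cd68, a macrophage glycoprotein, by 3.76, Ptprc, the pan-leukocyte antigen CD45, by 2.79, and H2-Aa, a class II antigen presentation gene, by 2.66. Without dbTg replicate 1 a call was left for 1 of the 12, likewise without dbTg replicate 2. Cd68, Ptprc and H2-Aa lost theirs (limma adjusted p = 0.0795 to 0.0909). A fit blocked on replicate number called 5. The lowest WT value of the 12 was 1.39, for the integrin gene Itgam. Of 8 fibroblast markers, all had positive differences with a median of 0.71 and none was called. Dpt, a matrix protein of skin and muscle fibroblasts, differed by 0.74 (limma adjusted p = 0.0542) and Col3a1, a fibrillar collagen, by 1.24 (limma adjusted p = 0.0601). Both were called without WT replicate 1 (limma adjusted p = 0.0398 and 0.00545), as was Lum, a matrix proteoglycan, and Col3a1 also without WT replicate 2 (limma adjusted p = 0.0409). None was called without either dbTg array. Their mean log2 level was 5.41 and 5.34 on the WT arrays and 6.07 and 6.16 on the dbTg arrays. The part of RNA from these cells in the lower reading of endothelial genes was not tested.

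Pericytes and smooth muscle cells share the vessel wall with endothelium. Their 12 markers had a median difference of -0.10 (-0.03 without WT replicate 1, -0.18 without WT replicate 2). At an unadjusted p below 0.05, 3 were lower and 1 higher, against 4.64% and 14.0% of the tested genes. The potassium channel subunit gene Abcc9, known from pericytes and also from muscle, read 8.36 and 8.37 in WT and 7.999 and 7.73 in dbTg (difference -0.51, limma adjusted p = 0.136). Acta2, the smooth muscle actin, read 5.74 and 5.01 in WT and 6.05 and 6.52 in dbTg (difference 0.91, limma adjusted p = 0.153), with 1.28 without WT replicate 1 (limma adjusted p = 0.021) and 0.55 without WT replicate 2 (limma adjusted p = 0.227). Rgs5, a pericyte marker, differed by -0.51. Myh11, the smooth muscle myosin, went the other way from Acta2. It read 4.39 and 4.34 in WT and 3.87 and 3.83 in dbTg (difference -0.52, limma adjusted p = 0.209). Of the 12 markers, 7 had negative and 5 positive differences. Of the 10 fibre markers, Myh1, a fast myosin, differed by 0.51 (limma adjusted p = 0.191) and Ckm, the muscle creatine kinase, by -0.36 (limma adjusted p = 0.36), and none was called.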

How the data were processed

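Quadriceps RNA of 4 mice was hybridised to Affymetrix whole-transcript arrays. The deposited values are log2 RMA values that the authors made in Affymetrix Expression Console, per the submitters' processing notes, whose version is not stated here. No detection call accompanies the values, so no background floor was set, and precision is limited by having 4 arrays.

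Of 41345 probe sets, 23521 had exactly 1 gene symbol in the array's annotation, 1814 had several and 16010 none. A gene's brightest probe set stood for it (22180 genes). Genes whose 4-array mean reached the 40th percentile, 1.48, were tested with limma 3.58.1 in R 4.3.3 (lmFit, eBayes with an intensity trend) with Benjamini-Hochberg adjustment over 13308 genes and a threshold of 0.05. SE and intervals are limma's moderated ones. The procedure was tested on simulated data.

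The 32 genes and all other lists were chosen with earlier results of these data known, and lists are described by counts and medians without a set test. The named genes were all members and, of each other list, up to 4 called genes or else the 2 with the smallest p. Further genes were chosen after their values were seen. Same-numbered mice share sex and were not treated as pairs. Promoter windows come from RefSeq (GRCm38.p6). The alternatives tried were leaving out each array, the replicate block, median centring, quantile normalization, other filters, the mean of probe sets, other eBayes settings and a threshold of 0.1.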

Additional observations from a re-analysis of the deposited data

Results flagged for a closer look

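For 11 endothelial genes the male and the female mouse pair differed in opposite directions. With 1 mouse of each genotype per sex the difference between the pairs was not tested, and 36.4% of all tested genes showed opposite signs. The female difference minus the male difference was -1.38 for Tie1 (0.27 in the males, -1.11 in the females), -1.09 for Lyve1 (0.67 and -0.42), -0.92 for Robo4 (0.08 and -0.84) and -0.48 for Ramp2 (0.04 and -0.44). It was 1.09 for Aplnr (-1.04 in the males, 0.05 in the females), 0.86 for Sox17 (-0.65 and 0.21), 0.82 for Apold1 (-0.23 and 0.59), 0.48 for Sox18 (-0.22 and 0.26), 0.45 for Erg (-0.31 and 0.14), 0.39 for Clec14a (-0.30 and 0.09) and 0.34 for Icam2 (-0.20 and 0.14).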

How the results depend on the processing

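The median difference of the endothelial genes stayed negative under every alternative tried, from -0.47 after quantile normalization to -0.23 without WT replicate 2. The count of endothelial genes called lower was 0 to 3 when each array was left out in turn, 2 at a threshold of 0.1 (Cdh5 and Ptprb) and 0 under the other alternatives, the replicate block included. Of the endothelial genes with negative differences, Icam2 read 0.00084 after median centring. Quantile normalization turned Mmrn2 to -0.0289 and Lyve1 to -0.0497. It also moved the median of the 30 further endothelial-enriched genes from -0.13 to -0.25, with 22 negative. The median of all tested genes moved from 0.09 to -0.0015. When each array was left out in turn, the difference ranged from -0.34 to 0.28 for Icam2, -0.96 to 0.13 for Tie1, -0.41 to 0.24 for Erg, -0.51 to 0.0701 for Sox17, -0.14 to 0.19 for Sox18, -0.23 to 0.59 for Apold1, -0.25 to 0.50 for Lyve1 and -0.11 to 0.72 for Ets2. Over the whole array, genes called lower and higher numbered 27 and 267. With a replicate block they were 2 and 63, after quantile normalization 7 and 120, without an intensity filter 7 and 165, and at a threshold of 0.1 they were 126 and 646. The filter at the 60th percentile gave 44 lower and eBayes without a trend 14. Leaving out each array gave 0 to 156 lower and 4 to 610 higher. The deviations of same-numbered mice from their group means correlated at 0.05 over the tested genes, so the replicate number was not taken as a pairing. The causes of these changes were not tested.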
